A study of Mus musculus with 2 samples.

Results

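Chromatin accessibility was examined at intervals with several summits in 2 ATAC-seq peak lists of late retinal progenitor cells (RPCs). ATAC-seq uses the Tn5 transposase to cut and tag open DNA, and the peak caller MACS2 writes 1 line per summit, the local maximum of the tag pileup, so that an interval with several summits appears on several lines with the same start and end. The intervals described here were selected on this count: an interval of chromosomes 1 to 19, X or Y was taken when its list gave it 3 or more lines. The control list held 1699 such intervals of 117165 (1.45%, 95% CI 1.38 to 1.52) and the Ngn3-OE list 1701 of 124935 (1.36%, 95% CI 1.30 to 1.43), together 3400 of 242100. At postnatal day 1, pups received by in vivo electroporation either the control plasmid or the plasmid that overexpressed Ngn3 (the gene Neurog3, a proneural bHLH factor). GFP-positive cells were sorted at day 2 after electroporation, and each library was made from 50000 cells. Each group had 1 library, the number of pooled pups was not given in the sources used here, and the labels name no strain, age at collection or sex. GFP marks the electroporated cells, whatever type they had become by then, and both groups carried a GFP-marked plasmid. No test of the condition was possible, and all intervals given below cover counting error only.

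A promoter or enhancer that is open over a long stretch usually holds binding sites for several factors, and a bound factor or a positioned nucleosome leaves a dip between open stretches. CpG islands, the CG-rich DNA at the start sites of many widely expressed genes, are often open over long stretches. In the newborn retina, proneural bHLH factors bind E-boxes, SOX factors hold progenitor and glial programmes, and CRX and OTX2 bind photoreceptor elements. The number of summits in an interval describes the shape of the pileup and is not a count of bound proteins.

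The files hold no read depth, and the lowest background used in peak calling was 0.261 tags for control against 0.257 for Ngn3-OE. All 8 progenitor markers, 4 of 4 photoreceptor markers and 3 of 3 ganglion cell markers had a peak at a start site in both lists. Of the markers of other cells, 1 of 3 for pigment epithelium, 2 of 3 for vessels and 3 of 3 for astrocytes had one in both lists, and 1 of 3 (control) and 2 of 3 (Ngn3-OE) for microglia. Rpe65, Tyr, Pecam1 and Cx3cr1 had none in either list. An open start site does not show expression, and the part of such cells in the results below was not tested. Control held 4 and Ngn3-OE 5 more intervals with 3 or more summits outside the assembled chromosomes, and these were not used.

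Sequences are shown for distal intervals, those over 3 kb from any start site, where summits of 1 list alone differed in the SOX core. Each is the reference sequence of the plus strand (mm10) for 50 bp on each side of a summit that had no summit of the other list within 100 bp. Capitals mark the SOX core ATTGT or the E-box CATCTG, and a minus-strand match shows as the reverse complement. They are among the summits with the most tags that held the SOX core in control or the E-box in Ngn3-OE, and were chosen after their values were seen.
Control, nearest start site Tmem144, chr3:79852818-79852918, SOX core in capitals: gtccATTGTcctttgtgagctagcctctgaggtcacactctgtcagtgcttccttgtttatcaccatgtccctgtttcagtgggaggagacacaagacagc
Control, nearest start site Tox, chr4:6913480-6913580, SOX core in capitals: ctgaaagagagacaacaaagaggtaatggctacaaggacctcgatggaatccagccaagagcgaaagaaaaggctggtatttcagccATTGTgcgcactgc
Ngn3-OE, nearest start site Btg2, chr1:134061090-134061190, E-box in capitals: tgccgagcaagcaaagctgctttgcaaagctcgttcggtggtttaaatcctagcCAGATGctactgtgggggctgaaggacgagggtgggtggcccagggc
Ngn3-OE, nearest start site Thrb, chr14:17990510-17990610, E-box in capitals: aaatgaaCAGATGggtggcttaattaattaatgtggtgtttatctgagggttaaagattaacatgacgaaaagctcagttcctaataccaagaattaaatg
The Tmem144 window was the middle summit of 3 with 12, 36 and 87 tags, and the overlapping Ngn3-OE interval had 2 summits of 14 and 134 tags. The interval in an intron near Tox, a gene of an HMG-box factor, had 3 summits of 26, 36 and 28 tags in control, against 1 summit of 10 tags in Ngn3-OE. The interval 18152 bp from Btg2, a gene that restrains proliferation, had 3 summits of 99, 77 and 80 tags in Ngn3-OE, and 2 of 93 and 38 tags in control. The intron interval near Thrb, the thyroid hormone receptor gene of cone development, had 3 summits in both lists, with 20, 16 and 29 tags in Ngn3-OE and 24, 11 and 15 tags in control.

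Intervals with several summits were wide and strong, which follows in part from how they were selected. Their median width was 497 bp in control (quartiles 419 and 590 bp, range 204 to 1090 bp) and 498 bp in Ngn3-OE (411 and 598 bp, range 208 to 1096 bp), against 124 and 122 bp for intervals with 1 summit. Their strongest summit had a median of 37 tags in both lists, against 8 tags with 1 summit. In control 1366 intervals had 3 summits, 271 had 4, 54 had 5, 6 had 6 and 2 had 7. In Ngn3-OE these numbers were 1355, 270, 66, 9 and 1. Just inside the limit, intervals with 3 summits had a median width of 473 bp for control intervals and 468 bp for those of Ngn3-OE and a median strongest summit of 36 and 35 tags. Just outside it, intervals with 2 summits had 319 and 316 bp and 24 tags in both lists. The intervals made up 4.61% of the covered base pairs in control and 4.41% in Ngn3-OE.

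**Figure D1:**
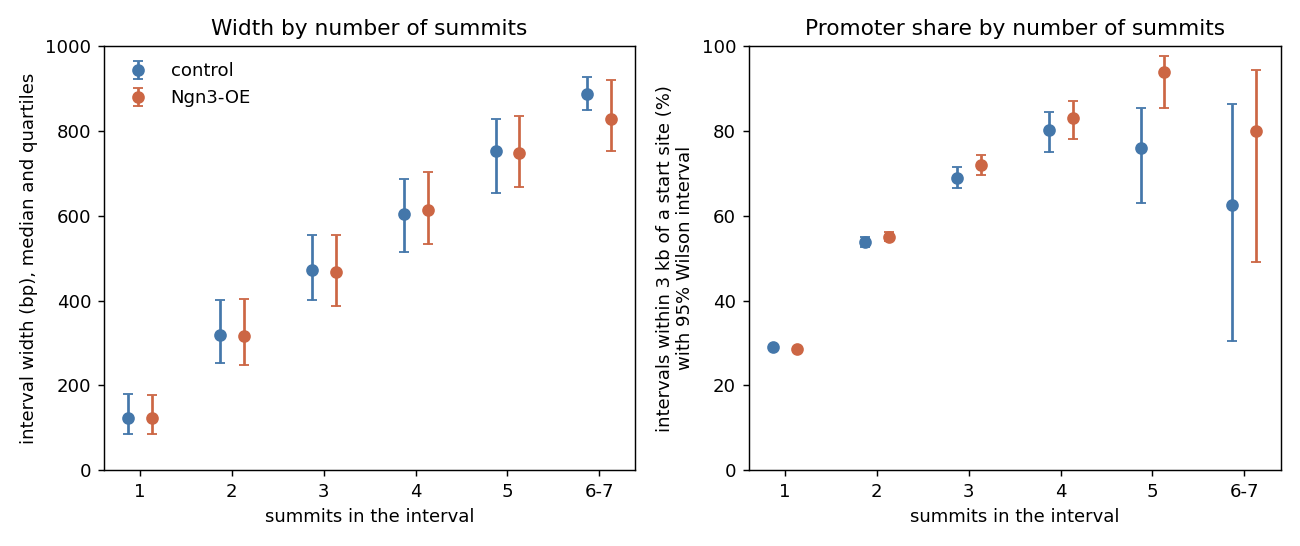
Left, interval width (bp) by number of summits, as median with quartiles. Right, share of intervals whose strongest summit lies within 3 kb of a start site (%), with 95% Wilson intervals, for control (blue) and Ngn3-OE (orange). Median width rises from 124 and 122 bp at 1 summit to 473 and 468 bp at 3, and the promoter share from 29.1% and 28.5% to 69.0% and 72.0%.

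Neighbouring summits lay about 130 bp apart. The median spacing was 129 bp in control (quartiles 95 and 178 bp, n = 3803 spacings) and 128 bp in Ngn3-OE (93 and 179 bp, n = 3835). The smallest spacing was 36 bp for control intervals and 39 bp for those of Ngn3-OE, and the largest 454 and 497 bp. Spacings of 60 to under 160 bp made up 63.8% in control and 63.7% in Ngn3-OE, while 11.5% and 10.6% fell between 180 and under 220 bp, around the repeat length of nucleosomes. The median spacing was shorter with 2 summits, at 120 and 118 bp, and was 130 and 128 bp with 3 summits, 129 and 128 bp with 4, and 124.5 and 130.5 bp with 5. From 3 to 5 summits, more summits came with a wider interval and no steady change in spacing. The median was 134 bp for control intervals and 132 bp for those of Ngn3-OE at promoters, and 117 and 118 bp at distal sites.

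**Figure D2:**
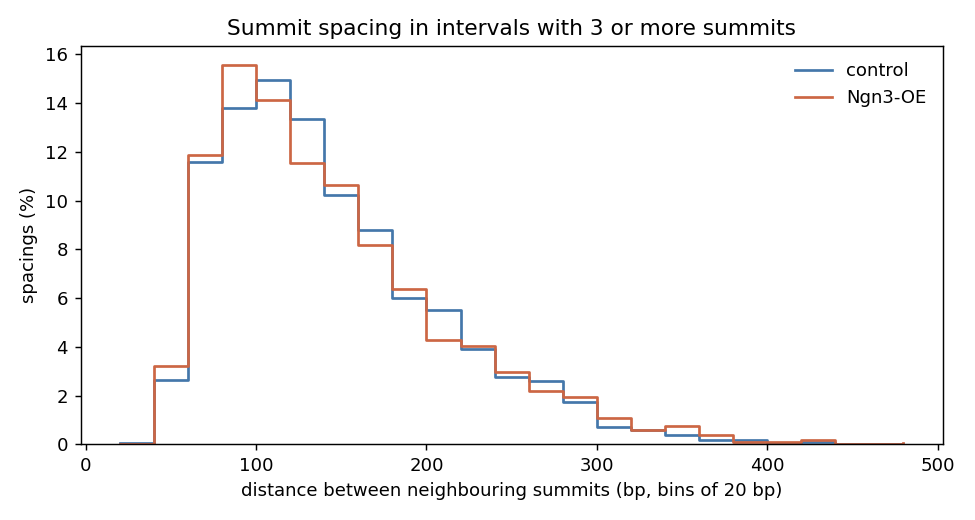
Distance between neighbouring summits (bp, bins of 20 bp) in intervals with 3 or more summits, as a share of all spacings (%), for control (3803 spacings) and Ngn3-OE (3835 spacings). Both lists have a single broad maximum below 160 bp and a tail that reaches 454 and 497 bp, with no separate maximum at 180 to under 220 bp.

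The summits of an interval were unequal in height. The next-highest summit had a median of 0.78 of the tags of the highest in control and 0.76 in Ngn3-OE, and the lowest had 0.48 and 0.47. The lowest summit had a median of 15 tags in both lists.

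The strongest summit was more often the last one along the chromosome. Of the intervals with 3 summits, it was the first in 24.2%, the middle one in 31.6% and the last in 44.2% of 1366 in control (95% CI of the last 41.6 to 46.9). In Ngn3-OE it was the first in 23.8%, the middle one in 31.3% and the last in 44.9% of 1355 (95% CI of the last 42.3 to 47.6). The same order was seen with 2 summits, where the last was the strongest in 62.2% of control and 64.4% of Ngn3-OE intervals. The share was lower near plus-strand genes than near minus-strand genes, with intervals that overlapped in control and not in Ngn3-OE. Near start sites of plus-strand genes the last of 3 was strongest in 39.7% in control (95% CI 35.1 to 44.5) and 37.0% in Ngn3-OE (95% CI 32.4 to 41.8). Near those of minus-strand genes, where the last summit lies towards the upstream side, it was 47.5% (95% CI 42.6 to 52.4) and 52.8% (95% CI 48.2 to 57.4). At distal intervals it was 46.0% and 43.5%. The first summit lay a median of 77 bp (control) and 75 bp (Ngn3-OE) from the start of the interval, and the last 97 and 92 bp from its end. The cause of this order was not tested.

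Most of these intervals were promoters. The strongest summit lay within 3 kb of a GENCODE start site in 1205 of 1699 control intervals (70.9%, 95% CI 68.7 to 73.0) and in 1270 of 1701 Ngn3-OE intervals (74.7%, 95% CI 72.5 to 76.7). For intervals with 2 summits this share was 53.8% and 55.0%, and for 1 summit 29.1% and 28.5%. The difference between 3 or more summits and 1 summit was 41.9 percentage points in control (95% CI 39.6 to 44.0) and 46.1 in Ngn3-OE (95% CI 44.0 to 48.2). Of the rest, 15.8% in control and 12.9% in Ngn3-OE were intronic and 12.4% and 10.9% intergenic. The promoter share was 3.74 points higher in Ngn3-OE than in control (95% CI 0.75 to 6.72), while over all intervals it was 31.3% in control and 30.8% in Ngn3-OE. With 1 library per group, plasmid and preparation cannot be told apart here. Protein-coding genes had the nearest start site for 72.5% of control and 75.7% of Ngn3-OE intervals, and long intergenic RNAs for 7.47% and 7.41%.

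Promoter shares were also read within classes of width. Among intervals of 200 to 399 bp, 57.6% of those with 3 or more summits were promoters in control, against 49.0% of those with 2 (difference 8.59 points, 95% CI 3.13 to 13.9). In Ngn3-OE these shares were 62.6% and 49.6% (difference 12.99 points, 95% CI 7.86 to 17.9). Among intervals of 400 to 599 bp the difference was 2.78 points in control (95% CI -0.79 to 6.26) and 1.03 in Ngn3-OE (95% CI -2.55 to 4.48), within counting error. Among intervals of 600 to 799 bp the share in control was lower with 3 or more summits than with 2, at 79.5% against 85.8% (difference -6.32 points, 95% CI -13.3 to 2.05). In Ngn3-OE these were 87.0% and 86.1% (difference 0.849 points, 95% CI -5.32 to 8.30), and both differences were within counting error. Width was part of what sets the number of summits, so these values are a description.

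The promoter intervals were CG-rich. An interval was called CpG-rich when it was at least 50% G or C and held at least 0.6 of the CG dinucleotides that its base composition predicts. This held for 86.6% of promoter and 10.3% of distal intervals with 3 or more summits in control, and for 87.6% and 12.99% in Ngn3-OE. Of the intervals with 1 summit, 46.9% of promoter and 5.20% of distal ones were CpG-rich in control, and 45.8% and 5.01% in Ngn3-OE. Wherever they lay, 64.4% (control) and 68.7% (Ngn3-OE) of intervals with 3 or more summits were CpG-rich, against 17.3% and 16.7% of those with 1 summit and 19.8% and 19.2% of all intervals.

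Summits stood on both sides of the start site. A start site lay inside 55.7% of the intervals in control and 59.1% in Ngn3-OE, against 8.42% and 7.87% of intervals with 1 summit. With 2 summits it was 35.8% and 36.7%. Where the start sites inside were of 1 gene, summits lay both upstream and downstream in 68.8% of 783 control and 70.8% of 846 Ngn3-OE intervals, against 51.2% and 50.3% of intervals with 2 summits. The strongest summit was upstream in 66.9% and 68.2% of them, with a median position of -58 bp (control) and -46.5 bp (Ngn3-OE). It was upstream in 70.0% and 69.0% of intervals with 2 summits and in 71.8% and 71.0% of those with 1. Start sites of both strands, as at divergent promoters, were inside 15.5% of the control and 14.4% of the Ngn3-OE intervals that held any. For intervals with 1 summit that share was 9.18% and 8.97%, and for those with 2 it was 13.4% and 13.8%, within counting error of the values for 3 or more. The shares with a start site inside and with summits on both sides follow in part from the selection. Intervals with 3 or more summits are wider, and 1 summit cannot stand on both sides.

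**Figure D3:**
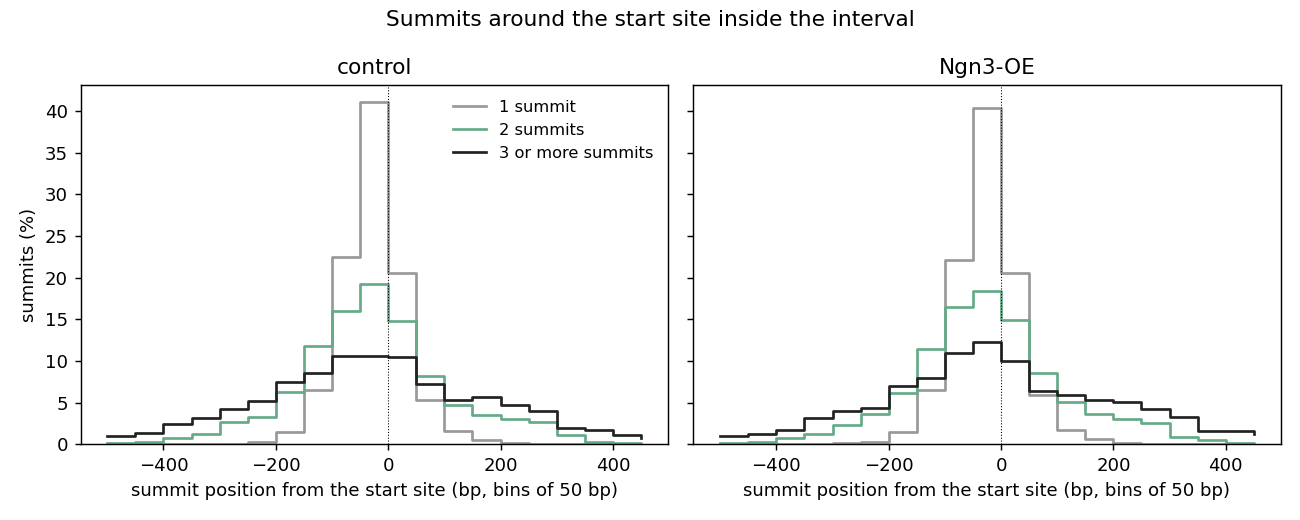
Position of summits (bp, bins of 50 bp, negative upstream) around the start site inside the interval, for intervals with the start sites of 1 gene, as a share of the summits (%). Summits of intervals with 1 summit gather just upstream of the start site, with a median of -27 bp (control) and -25 bp (Ngn3-OE), while those of intervals with 3 or more spread further on both sides.

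Of the intervals with 6 or 7 summits, 5 of 8 were promoters in control and 8 of 10 in Ngn3-OE. The only interval with 7 summits in Ngn3-OE covered the promoter of Ccdc88c (chr12:101028778-101029711), with 13, 21, 27, 38, 29, 33 and 31 tags. In control the same stretch held an interval with 4 summits (14, 15, 39 and 42 tags) and a pair of intervals with 1 summit each (36 and 30 tags). In control an interval with 7 summits lay at the promoter of 1700064H15Rik (chr3:19628124-19629041), with 17, 31, 39, 34, 47, 53 and 40 tags, and was split in Ngn3-OE into intervals of 2 and 3 summits. The other, intergenic one (chr5:112001736-112002554, nearest start site Gm42488) had 39, 21, 29, 39, 37, 29 and 18 tags, and 3 summits of 43, 33 and 34 tags in Ngn3-OE.

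Dedd, a death-effector domain gene, had 6 summits in both lists, with 20, 33, 59, 59, 26 and 21 tags in control, against 31, 63, 65, 21, 21 and 22 tags in Ngn3-OE. The Ngn3-OE interval (chr1:171328911-171329962) ran further and also took in a control interval of 15 tags. The widest interval of both lists was at the promoter of Gsk3b, the kinase of WNT and insulin signalling, at 1090 bp with 3 summits in control and 1096 bp with 5 in Ngn3-OE. Its highest summit had 143 tags in control, and 142 in Ngn3-OE. Usp9x, an X-linked deubiquitinase gene, had 6 summits in control and 5 in Ngn3-OE, and Atp2b1, a plasma membrane calcium pump gene, also had 6 and 5.

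Among the strongest intervals, the heights of the summits took different shapes. At Tmtc4, control had 3 summits of 25, 16 and 183 tags, and Ngn3-OE 6 summits of 38, 20, 27, 27, 29 and 184 tags. The Ngn3-OE interval took in a further control interval of 31 tags. At Qdpr, which recycles tetrahydrobiopterin, control had 168, 206 and 127 tags, and Ngn3-OE had 2 summits of 232 and 121 tags. Klf6, a zinc-finger factor gene, had 106, 186 and 36 tags in control, against 184 and 30 tags in Ngn3-OE. Sertad2 had 4 summits of 122, 110, 184 and 25 tags in control, and in Ngn3-OE 3 of 104, 210 and 36 tags. These 4 are examples in which the number differed, and another interval among the 10 strongest of both lists had 3 summits in each.

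Distal intervals were fewer, narrower and lower. Control had 494 and Ngn3-OE 431 of them, with a median width of 459 and 448 bp against 512 and 518 bp at promoters. Their strongest summit had a median of 26 (control) and 24 tags (Ngn3-OE), against 45 and 44 tags at promoters. They lay a median of 23150 bp from a start site in control and 19753 bp in Ngn3-OE. The next examples are among the strongest distal intervals and were chosen after their values were seen. An interval 6.641 kb from Elovl5, a fatty acid elongase gene, had 100, 17 and 22 tags in control, against 115 and 17 tags in Ngn3-OE. An interval 32.45 kb from Cdk6, a kinase gene of cell cycle entry, had 12, 31 and 74 tags in Ngn3-OE and 15, 32 and 53 tags in control. An intergenic interval (chr15:85634396-85634873, nearest start site Gm49539) had a plateau of 120, 129 and 102 tags in Ngn3-OE and a single summit of 124 tags in control.

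Few genes had more than 1 such interval near a start site in a list. Crlf2, a cytokine receptor gene, had 2 in each list with 8 summits in all in each, and Cnn3, a calponin gene, 2 in each with 6 summits in all. Bach2, a transcriptional repressor gene, had 2 in control and 1 in Ngn3-OE, and Cdh2, the N-cadherin gene, 1 in control and 2 in Ngn3-OE.

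Neurog3 stood apart from every other interval with several summits. The Ngn3-OE interval (chr10:62133456-62134106) had 4 summits of 1307, 1073, 1177 and 1591 tags, spaced 82, 94 and 301 bp, and the next-highest interval of the same class reached 225 tags. All 4 summits lay inside the coding sequence, at its base pairs 72, 154, 248 and 549. The control list had 0 intervals within 10 kb. Coding DNA carried by the overexpression plasmid and the chromosomal gene cannot be told apart in these lists. Without this interval the Ngn3-OE list has 1700 intervals with 3 or more summits.

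To ask whether the lists share these intervals, each was set against the intervals of the other list that it overlapped by at least 1 bp, its counterparts. Of the control intervals with 3 or more summits, 1698 of 1699 (99.9%, 95% CI 99.67 to 99.99) had a counterpart, where 78.3% of all control intervals had one. Of the Ngn3-OE intervals, 1700 of 1701 had one, where 73.4% of all did. Intervals with 2 summits had a counterpart in 98.3% and 99.0%. The exceptions were Neurog3 in Ngn3-OE and, in control, an intergenic interval (chr13:51920677-51921036, nearest start site Gm26651) with 16, 18 and 13 tags.

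The number of summits was seldom the same in both lists. With 1 library per group, how often it repeats within a condition is not known. Among intervals with exactly 1 counterpart, 415 of 1430 in control (29.0%, 95% CI 26.7 to 31.4) had as many summits in the other list, where 88.6% of all control intervals did. In Ngn3-OE it was 408 of 1415 (28.8%, 95% CI 26.5 to 31.2), where again 88.6% of all did. The background is set by intervals with 1 summit, of which 93.7% and 93.9% had 1 in both lists, while intervals with 2 summits had the same number in 41.3% and 40.1%. The counterpart of a control interval with 3 or more summits had fewer in 61.2% and more in 9.79%, and that of an Ngn3-OE interval in 62.7% and 8.48%. Summits fell from a mean of 3.23 to 2.52 from control to Ngn3-OE, and from 3.23 to 2.49 from Ngn3-OE to control. Each set was selected for a high number in its own list, and the loss was alike in both directions. A difference of at most 1 summit held for 79.2% and 79.3%. A further 268 control and 285 Ngn3-OE intervals overlapped 2 or more intervals, and their counterparts had the same number in sum in 30.6% and 30.2%.

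**Figure D4:**
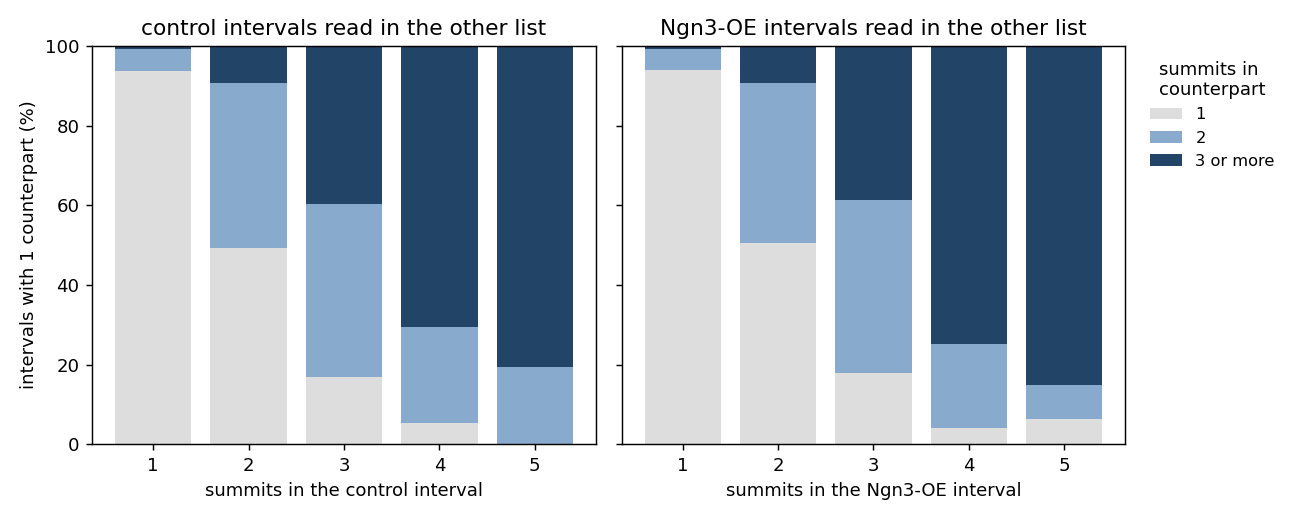
Intervals with exactly 1 counterpart, by their number of summits (bars) and by the number of summits in the counterpart (shading), as a share (%). Of the intervals with 3 summits, 39.7% in control and 38.7% in Ngn3-OE had 3 or more in the other list, against 70.5% and 74.9% of those with 4.

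Neither list had more summits where both were weighed together. At 2135 sites where 1 interval of each list overlapped and either had 3 or more summits, Ngn3-OE had more in 876 (41.0%), fewer in 868 (40.7%) and as many in 391 (18.3%). Of those that differed, Ngn3-OE had more in 50.2% (95% CI 47.9 to 52.6). At promoters this was 51.0% (95% CI 48.2 to 53.9, n = 1176) and at distal sites 48.6% (95% CI 44.5 to 52.7, n = 568). Both had 3 or more in 33.6% of 1492 promoter and 17.4% of 643 distal sites.

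Agreement went with strength. With control intervals split at the quartiles of their strongest summit, the same number of summits was found in Ngn3-OE for 21.01% at 8 to 23 tags (95% CI 17.1 to 25.5), 28.5% at 24 to 37 tags, 35.1% at 38 to 62 tags and 31.3% at 63 to 206 tags (95% CI 26.9 to 36.1). For Ngn3-OE intervals the shares ran from 21.3% in the lowest class to 36.1% and 33.3% in the upper ones. Promoter intervals had the same number in 32.4% in control and 31.6% in Ngn3-OE, and distal ones in 20.0% and 21.3%. Of all intervals with 3 or more summits, 696 control intervals (41.0%) and 696 Ngn3-OE intervals (40.9%) overlapped an interval that also had 3 or more summits. Those control intervals were promoters in 82.2% and had a median of 44 tags, and the others in 63.1%, with 31 tags.

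The positions of the summits were compared next, with a summit counted as kept when the other list had one within 50 bp. This window is wide against the median spacing of 129 and 128 bp, so a part of the matches can arise from spacing alone, and that part was not computed. Of the 5502 summits in control intervals with 3 or more, 68.4% had a summit of the Ngn3-OE list within 50 bp (95% CI 67.1 to 69.6), and of the 5536 in Ngn3-OE 67.6% had one in control (95% CI 66.3 to 68.8). The strongest summit of the interval was kept in 85.1% and 84.9%, and the other summits in 60.9% and 59.9%. Summits with under 50% of the tags of the strongest were kept in 56.4% and 53.8%. For comparison, the summit of 1-summit intervals with 20 or more tags was kept in 95.7% and 95.9%. Over 1-summit intervals of any strength it was kept in 66.8% and 62.1%. Summits of intervals with 2 were kept in 69.2% and 70.0%, so the share over all summits of the intervals with 3 or more lay near these values. Where both lists had the same number, summits of the same order were a median of 17 bp apart, and the strongest summit had the same place in 65.3% of 415 control intervals and 65.7% of 408 Ngn3-OE intervals.

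Among promoter summits, the GC box GGGCGG, bound by SP and KLF factors, was the most frequent of the 12 motifs searched. It lay within 50 bp of 44.4% of 3930 summits of control promoter intervals with 3 or more summits and of 44.3% of 4183 in Ngn3-OE, against 37.4% and 36.6% for promoter intervals with 1 summit of 20 or more tags. The share over the summits of all promoter intervals was 29.9% and 29.3%. The difference from strong 1-summit promoters was 7.05 points in control (95% CI 5.26 to 8.84) and 7.78 in Ngn3-OE (95% CI 6.05 to 9.52). The CCAAT box, bound by NF-Y, was less frequent, at 13.5% in both lists against 24.0% and 23.2%. Over the summits of all promoter intervals it was at 15.9% and 15.2%. The ETS motif CCGGAAG was at 3.66% and 3.85% against 8.91% and 8.16%, and over all promoter summits at 4.63% and 4.27%. Against 1-summit promoters of any strength the differences were smaller, at -2.41 points (95% CI -3.52 to -1.23) in control and -1.87 (95% CI -2.95 to -0.73) in Ngn3-OE for the CCAAT box. For the ETS motif they were -0.92 points (95% CI -1.51 to -0.24) and -0.26 (95% CI -0.85 to 0.40), the latter within counting error. Summits of 1 interval lie close together and their windows overlap, so they are not independent. All summits of an interval with 3 or more were counted, low ones included. Strong 1-summit intervals gave their only summit, so the sets compared differ in strength and position. At promoter and distal sites together, the median was 23 tags against 33 in both lists. Of these promoter motifs, only the GC box was recounted at the strongest summit.

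At distal summits, motifs of the retina showed another order. The CRX/OTX motif GGATTA was within 50 bp of 6.42% of 1572 control and 9.16% of 1353 Ngn3-OE summits, against 13.9% and 19.8% for strong distal intervals with 1 summit. The SOX core was at 19.02% and 13.5% against 14.9% and 10.5%. Against distal 1-summit intervals of any strength, the SOX difference was 3.01 points in control (95% CI 1.13 to 5.04) and -0.29 in Ngn3-OE (95% CI -2.03 to 1.65), the latter within counting error. The E-box CATCTG was at 14.1% and 16.8% against 16.0% and 18.7%, which did not differ beyond counting error. Over all distal summits these motifs were at 11.7% and 14.3% (CRX/OTX), 16.2% and 13.7% (SOX) and 15.8% and 17.2% (E-box). As at promoters, all summits of an interval were set against the only summit of strong 1-summit intervals.

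Summits present in 1 list alone differed in the SOX core. Of the 646 distal control summits with no Ngn3-OE summit within 50 bp, 143 (22.1%, 95% CI 19.1 to 25.5) held it. Of the 540 distal Ngn3-OE summits with no control summit within 50 bp, 66 (12.2%, 95% CI 9.72 to 15.3) did, a difference of -9.91 points (95% CI -14.1 to -5.63). With only the strongest summit of each interval the difference was -16.8 points, and within 25 bp -6.83. The homeobox core TAATTA was at 7.89% in control and 4.81% in Ngn3-OE (difference -3.08, 95% CI -5.86 to -0.25), and over all distal summits it was at 6.06% and 5.39%. The CRX/OTX motif was at 5.57% and 8.52% (difference 2.95, 95% CI 0.03 to 6.01), and the E-box CATCTG at 10.7% and 14.3% (difference 3.58, 95% CI -0.18 to 7.44). Over all distal summits the lists also differed in the same directions. There CRX/OTX was at 11.7% and 14.3%, the SOX core at 16.2% and 13.7% and the E-box at 15.8% and 17.2%. The E-box difference was 7.01 points within 100 bp and 5.54 with only the strongest summit of each interval. The other 8 motifs did not differ beyond counting error at distal summits, and none of the 12 did at promoters. A match is a run of letters and not a bound site, and plasmid and preparation cannot be told apart with 1 library per group. No correction was made for the 12 motifs, and these summits come from the same libraries as the other peaks of the lists, so they are not independent of them.

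**Figure D5:**
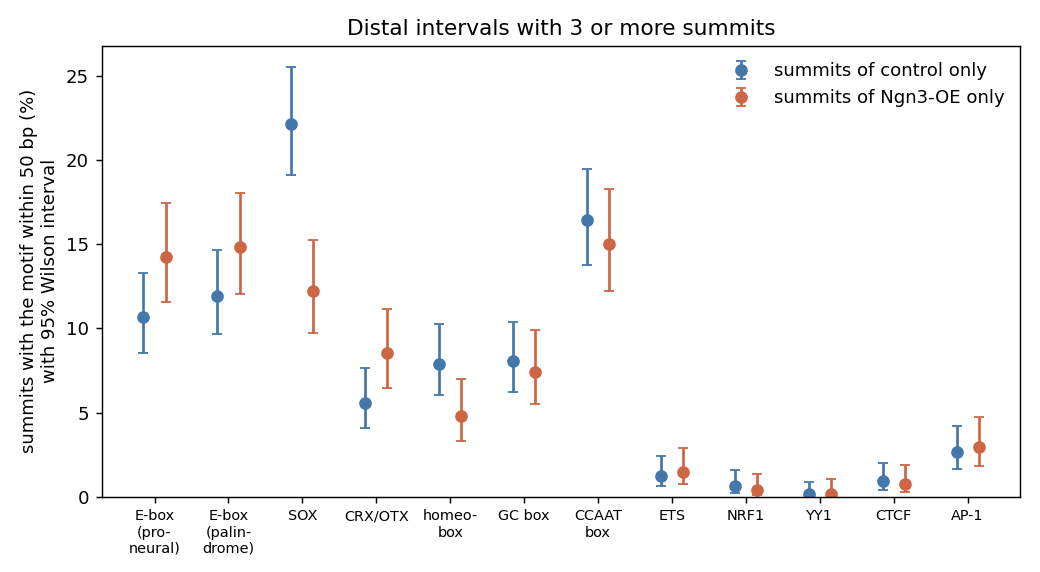
Share of summits with each motif within 50 bp (%), with 95% Wilson intervals, for distal intervals with 3 or more summits, taken at the 646 summits of control only (blue) and the 540 of Ngn3-OE only (orange). The SOX core is at 22.1% in control and 12.2% in Ngn3-OE, and the intervals of most other motifs overlap.

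Genes of the retina were then read from 10 lists, and a gene was counted when an interval with 3 or more summits had a summit within 3 kb of one of its start sites. Of 21938 protein-coding genes, 5.58% had such an interval in control and 5.88% in Ngn3-OE, and 593 genes had one in both. Among 14 proneural genes, bHLH factors and Insm1, 3 had one in control and 5 in Ngn3-OE. Among 20 Notch pathway genes it was 3 in each list, among 20 photoreceptor genes 2 and 3, and among 20 retinal progenitor factors 1 and 3. The proneural shares were 21.4% in control (95% CI 7.57 to 47.6) and 35.7% in Ngn3-OE (95% CI 16.3 to 61.2), and the latter counts Neurog3 itself. Without Neurog3 it was 4 of 13 in Ngn3-OE (30.8%, 95% CI 12.7 to 57.6). Among the protein-coding genes with a peak, 8.08% in control and 8.44% in Ngn3-OE had such an interval, against 3 of 13 proneural genes with a peak in control (23.1%, 95% CI 8.18 to 50.3), a bound close to this background. Among 22 chromatin and general transcription genes, 5 had one in control (22.7%, 95% CI 10.1 to 43.4) and 1 in Ngn3-OE. For the other 8 lists the interval of the share held the share of all protein-coding genes in both lists.

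Of the proneural genes, Neurog1, Bhlhe22 and Insm1 had such an interval in both lists. Insm1, a zinc-finger gene of newborn neurons, had 3 summits of 42, 38 and 46 tags in control, against 44, 41 and 64 tags in Ngn3-OE. Bhlhe22 had 3 summits of 23, 33 and 37 tags in control, and in Ngn3-OE 5 of 27, 37, 30, 31 and 39 tags. Neurog1 had 9, 28 and 22 tags in control, against 14, 18 and 27 tags in Ngn3-OE. Neurod4, a bHLH gene downstream of neurogenins, had 3 summits of 20, 48 and 65 tags in Ngn3-OE (the strongest at -2058 bp from the start site) and 2 of 16 and 58 tags in control.

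In the Notch pathway, Hey1, a target that represses neurogenesis, had such an interval in both lists, with 26, 41, 78, 39 and 48 tags in control, against 17, 50, 76 and 42 tags in Ngn3-OE. Hes1, the main Notch effector of progenitors, had 38, 30 and 40 tags in control, and in Ngn3-OE 2 summits of 28 and 27 tags. Notch2, a receptor, had 31, 10 and 11 tags in control, against 25 and 10 tags in Ngn3-OE. Jag2, a ligand, had 13, 20 and 10 tags in Ngn3-OE and a pair of control intervals of 12 and 8 tags. At Hes5, another effector, control had a pair of intervals with 1 summit each of 43 and 27 tags, while Ngn3-OE had 3 summits of 16, 16 and 13 tags. At this gene the list with more summits in 1 interval had the lower tags.

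Of the photoreceptor genes, Nr2e3, which fixes rod identity, had 3 summits in both lists, with 21, 40 and 28 tags in control, against 39, 56 and 35 tags in Ngn3-OE. Its strongest summit lay at -2770 bp from the start site in control and at -2766 bp in Ngn3-OE. Rxrg, a nuclear receptor gene of cones and ganglion cells, had 15, 15 and 67 tags in Ngn3-OE and 1 summit of 43 tags in control. Sag, the rod arrestin gene, had 37, 44 and 31 tags in Ngn3-OE and 24 and 37 tags in control, and Prph2, of the outer segment disc, 44, 49 and 47 tags in control, against 67 and 65 tags in Ngn3-OE. The strongest Prph2 summit in control lay 2004 bp past the start site. With a limit of 1 kb in place of 3 kb, 0 photoreceptor genes counted in control and 2 in Ngn3-OE. Pileups are not normalised between libraries, and the genes entered through the list that gave them 3 summits, so no direction is read from these values.

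Of the progenitor factors, Nfib had 22, 17 and 22 tags in control, against a pair of Ngn3-OE intervals of 15 and 22 tags. Lhx2 had 4 summits of 7, 9, 15 and 12 tags in Ngn3-OE and 1 of 12 tags in control. Meis2 had 38, 73 and 21 tags in Ngn3-OE and 75 and 25 tags in control, and Six3 25, 31 and 25 tags in Ngn3-OE against a pair of control intervals of 39 and 20 tags. Of 20 ganglion cell genes, Elavl4 alone was counted, in control, with 19, 16 and 16 tags against 15 and 14 tags in Ngn3-OE. Of 15 interneuron genes, Lhx4 alone was counted, in Ngn3-OE, with 29, 16 and 16 tags against 31 and 26 tags in control.

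Of 16 Müller glia genes, Hes1 was counted in control and Car2 in Ngn3-OE, where Car2, a carbonic anhydrase gene, had 6 summits of 55, 27, 20, 20, 37 and 22 tags. In control the same stretch held a pair of intervals with 2 summits each, of 46, 21, 16 and 43 tags. Of 32 cell cycle genes, Rb1 was counted in both lists, Top2a in control and Ccne2 in Ngn3-OE. Of 20 signalling genes, Fgfr2 was counted in control and Fzd5 in Ngn3-OE, where Fzd5, a WNT receptor gene of the eye, had 31, 65, 66 and 84 tags against 87 and 99 tags in control.

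The chromatin and general transcription genes counted in control were Ctcf, Ep300, Hdac2, Rad21 and Suz12, and in Ngn3-OE Ctcf alone. With 2 or more lines, 15 genes counted in control and 12 in Ngn3-OE. Ep300 had 55, 24 and 14 tags in control. In Ngn3-OE it had a pair of intervals with 2 summits each, of 8, 58, 21 and 13 tags. At Suz12, a Polycomb gene, control had 17, 75 and 34 tags and Ngn3-OE 17 and 68 tags, and at Rad21, a cohesin gene, control had 24, 33 and 63 tags and Ngn3-OE 41 and 74 tags. Hdac2, a histone deacetylase gene, had 70, 37 and 22 tags in control and a pair of Ngn3-OE intervals of 74 and 51 tags. Ctcf, the insulator factor gene, had 3 summits of 19 tags each in control and 4 of 10, 15, 20 and 23 tags in Ngn3-OE.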

How the data were processed

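The authors aligned trimmed reads to mm10 with Bowtie2, removed PCR copies (Picard), mitochondrial reads (SAMtools) and blacklisted regions (bedtools), shifted read ends for Tn5 (deepTools), and called peaks with MACS2 on short fragments, in each library separately. The deposited lists give per line an integer score, a fold enrichment over the local background, the −log10 of p and q, and the summit offset. Lines with an equal interval were merged, with −log10 q naming the strongest summit. Whole-number tags at each summit were solved from the deposited fold enrichment and −log10 p (largest residual 0.00324), since the files hold no read depth. Fold enrichments are not normalised between libraries and were not compared. Short fragments leave out nucleosomal DNA, which sharpens summits. Start sites came from GENCODE release M21, sequence from the RefSeq copy of GRCm38 (mm10), and motifs were searched on both strands within 50 bp. Shares have 95% Wilson intervals and differences Newcombe intervals. The members and gene lists were chosen with earlier results of these data known. Named genes were Neurog3, those of the gene lists, and in each list the 10 intervals with most summits, the 10 strongest, the 5 widest, those with the largest loss or gain of summits, and those without a counterpart, of which the text gives a part. The sequences printed were chosen after the values were seen. Steps were tested on simulated data, in Python 3.11.15 with pandas 2.3.3, scipy 1.17.1 and pysam 0.24.0. The authors' differential regions were not used here.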

Additional observations from a re-analysis of the deposited data

How the results depend on the processing

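No paired analysis was possible because each group had 1 library, and for the same reason no replicate could be left out. Values are given for control and then Ngn3-OE. The share of intervals with several summits depends on the definition: 8.04% and 7.64% with 2 or more lines, 0.284% and 0.277% with 4 or more, 1.89% and 1.76% with only summits of −log10 q of at least 5, and 0.798% and 0.720% with only summits of at least 0.5 of the strongest pileup. The promoter share was 66.2% and 69.3% at 1 kb. It was 65.1% and 69.3% for start sites of protein-coding genes, and 79.0% and 85.0% with 4 or more lines. A counterpart with 50% overlap of both intervals was found for 89.2% and 92.0%, and with −log10 q of at least 5 in both lists for 98.6% in control. The same number within 1 summit held for 79.2% and 79.3%. Summits were kept in 50.7% and 50.5% at 25 bp and in 85.7% and 85.6% at 100 bp. The GC box was at 24.6% and 24.1% of promoter summits within 25 bp, 65.8% and 65.1% within 100 bp, and 47.6% and 49.8% at the strongest summit. The SOX difference was -14.3 points within 100 bp and -16.8 at the strongest summit. Genes with such an interval were 5.26% in control at 1 kb, 8.51% and 8.82% over gene bodies with 10 kb on either side, and 22.5% and 23.6% with 2 or more lines. The other 32 of 68 recounts stayed within counting error of the value reported, spacing and the last-summit share among them, and none changed sign. They include the E-box difference at distal summits of 1 list alone, which was 3.58 points (95% CI -0.18 to 7.44), but 7.01 within 100 bp and 5.54 at the strongest summit, and the SOX difference within 25 bp, which was -6.83 points. The last-summit recounts were chosen after seeing the data. Of 60 recounts of the gene lists, 33 changed by over 1.5 times, on counts of 0 to 5 genes. The lowest summit of an interval has a median of 15 tags, and the effect of depth on the number of summits was not tested.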
